A study of Homo sapiens with 7 samples.

Results

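Immediate early genes and the feedback genes of the ERK pathway were examined by RNA sequencing in clones of UM-UC-3, a human bladder cancer cell line. The set was drawn up by name, with earlier results of these data known. Of 38 named genes, 35 have a row among the 13872 genes of the deposited table. EGR2, EGR3 and DUSP2 were not analysed here. The 7 libraries were 3 clones with high aldehyde dehydrogenase (ALDH) activity (H1, H6 and H10), 3 clones with low activity (L1, L3 and L8) and 1 library of the unsorted wild-type line. Clones were sorted by ALDEFLUOR, a dye assay in which cells with more ALDH activity fluoresce more. The study treats the ALDH-high clones as cancer stem-like cells and the ALDH-low clones as their non-stem counterparts. None of the cells received a drug or a gene edit according to the labels. All clones derive from the same line and each gave 1 library. The replicates are therefore clones (n = 3 per group), and wild type rests on a single library.

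Immediate early genes are switched on by incoming signals through proteins already present in the cell, without new protein synthesis. Growth factors, serum or an active RAS protein act through RAF, MEK and ERK on transcription factors such as SRF and its ETS-family partners, which then switch on FOS, EGR1 and related genes. The products include AP-1 factors (FOS and JUN family dimers), which drive a later round of transcription. Negative feedback genes follow: DUSP proteins dephosphorylate ERK and related kinases, and Sprouty and SPRED proteins act upstream, at RAS and RAF. Many of these transcripts turn over fast, so their level depends on conditions at harvest. The labels give DMEM with 10% FBS as culture medium, naming the ALDH-high clones, and give no time between feeding and harvest.

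The best known link between serum, ERK and these genes is the CArG box, the sequence that SRF binds (CC, 6 bases of A or T, then GG). It is shown here because EGR1 and SRF itself, both members of the set, each carry 2 copies just upstream of the start site. RefSeq promoter windows of 300 bases (250 before to 50 after a start site, GRCh38.p14) were found for 26 of the 35 genes. These 26 genes had 33 windows, and a gene was counted when any of its windows matched. Shares of all windows, here and below, are per window, so they are not directly comparable with counts of genes. The CArG box occurred on either strand in windows of EGR1 and SRF and in 1.29% of all 35116 windows. Sequence over 250 bases upstream was not searched. Nor were the 9 genes without a window (CYR61, DUSP4, DUSP5, ETV4, ETV5, FOSL1, IER3, KLF10 and MCL1). The search therefore does not show that other members, FOS included, lack the box. The stretches below are from the plus strand at chr5:138465334-138465445 (EGR1) and chr6:43171199-43171268 (SRF), read 5′ to 3′, with the boxes in capitals.
EGR1: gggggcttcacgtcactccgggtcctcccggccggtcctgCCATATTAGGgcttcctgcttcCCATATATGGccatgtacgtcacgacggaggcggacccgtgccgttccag
SRF: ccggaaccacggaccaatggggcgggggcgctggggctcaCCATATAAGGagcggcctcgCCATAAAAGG
The boxes began 105 and 83 bases upstream of the EGR1 start site, and 30 and 10 bases upstream of that of SRF.

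A different element, the CRE (TGACGTCA, the same on both strands), bound by CREB and ATF factors, was present in windows of DUSP1, JUND and MAFF and in 1.85% of all windows. It is shown with 12 bases on each side because these 3 genes were highest in different libraries of the 7 (wild type, L1 and H6). Among the 6 clones, DUSP1 and MAFF were both highest in H6, and JUND was highest in L1. The stretches are at chr5:172771301-172771332 (minus strand, DUSP1), chr19:18281803-18281834 (minus strand, JUND) and chr22:38201928-38201959 (plus strand, MAFF).
DUSP1: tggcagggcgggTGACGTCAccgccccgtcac
JUND: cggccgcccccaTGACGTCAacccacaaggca
MAFF: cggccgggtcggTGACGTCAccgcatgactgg
The AP-1 element TGACTCA, searched on both strands, occurred in windows of FOSL2 and SPRED2 and in 4.95% of all windows. The EGR element GCGNGGGCG, also on both strands, occurred for 8 genes (EGR1, KLF2, KLF4, KLF6, SPRY1, SPRY2, SPRY4 and SRF) and in 9.43% of all windows. A match describes the letters in a window and does not show that a factor binds there.

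Values are CPM, read counts scaled by library size, as deposited. The labels do not name the library type, and whether reads cover whole transcripts or only their 5′ ends is not known. The values are not scaled by gene length, so levels are compared between libraries and not between genes. Column totals ran from 967085 to 1019855 CPM, and the smallest value above 0 was 0.04 CPM in each library. ALDH1A1, a marker enzyme of the sort, stood at 96.32, 33.37 and 42.2 CPM in H1, H6 and H10 and at 0, 0.08 and 0 CPM in L1, L3 and L8, with 37.85 CPM in wild type. Of 18 urothelial marker genes 5 had a row. The keratins KRT8 (56.16 to 391.35 CPM) and KRT18 (142.95 to 582.39 CPM) were well above the floor, while KRT7 (1.48 to 7.19 CPM), PPARG (0.24 to 7.94 CPM) and FOXA1 (0.4 to 1.96 CPM) were low in every library. Of 13 leukocyte and endothelial markers only CD68, which tumour lines can also express, had one (64.36 to 139.04 CPM).

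Of the 35 genes, 34 passed a filter on low values (3 or more of the 6 clones at 1 CPM or above) and were compared between ALDH-high (H) and ALDH-low (L) clones. The test was limma on log2(CPM + 1), with Benjamini-Hochberg adjustment over all 12705 tested genes. On this scale differences of low genes are understated. None of the 34 passed an adjusted p of 0.05, with 0 higher and 0 lower in ALDH-high clones, where 0.645% and 0.693% of all tested genes passed (1.34% in all). At an unadjusted p under 0.05 there were 12, with 10 higher and 2 lower, against 19.7% of all tested genes. The groups did not overlap for 7 genes, 5 higher (FOSB, PHLDA1, CTGF, DUSP6, ETV4) and 2 lower (FOSL2, KLF6), against 26.1% of all tested genes (14.0% higher and 12.1% lower). The median difference was 0.17 log2 units, beside 0.00362 for all tested genes. It was 0.11 without H6 and 0.36 without H1. With library weights 2 genes passed as higher (DUSP6 and MAFF) and 1 as lower (FOSL2), in a fit that called 5.51% of all tested genes. The 7 of 34 are no larger a share than in the table as a whole.

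**Figure D1:**
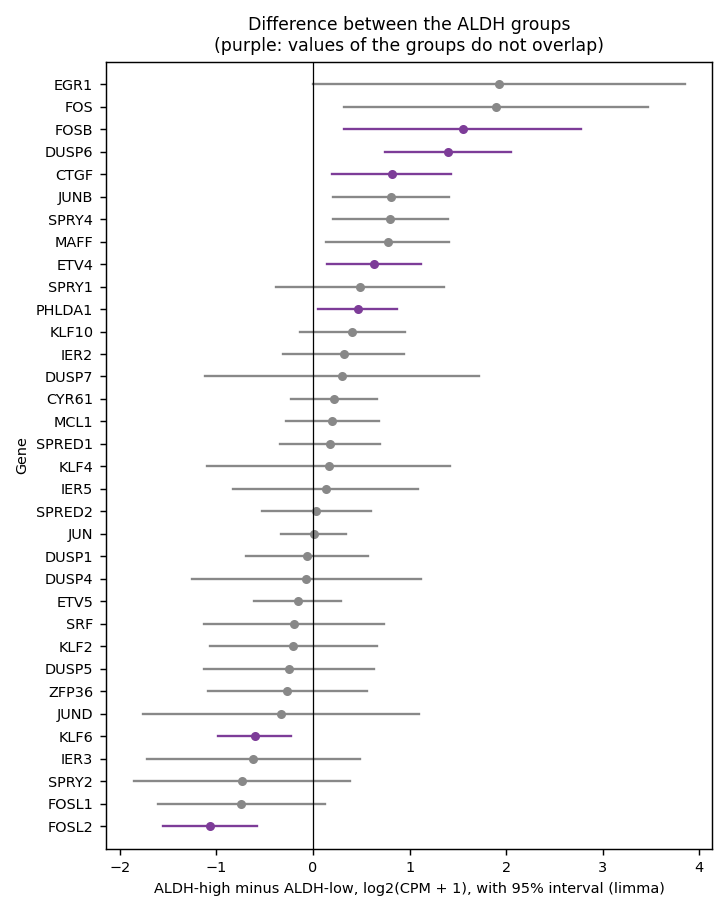
Difference of ALDH-high from ALDH-low clones (n = 3 each) on log2(CPM + 1) for the 34 tested genes, as limma estimates (points) with 95% intervals (lines); purple marks genes whose group values do not overlap. EGR1 and FOS have the largest estimates, near 1.9, with wide intervals (0.0011 to 3.85 and 0.32 to 3.47). The intervals of DUSP6 and FOSL2 are narrower and lie further from 0. Intervals exclude 0 for the 12 genes with an unadjusted limma p under 0.05, and none of the 34 passed the adjusted threshold.

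None of the 4 FOS family genes passed the adjusted test. FOS (ENSG00000170345, chromosome 14), the classic early AP-1 subunit, was at 22.25, 26.92 and 7.48 CPM in H1, H6 and H10. In L1, L3 and L8 it was at 12.36, 2.51 and 1.28 CPM, and wild type had 21.86 CPM. H10 lay below L1, so the groups overlapped. The difference was 1.90 log2 units (SE 0.682, limma adjusted p = 0.185). FOSB (ENSG00000125740, chromosome 19), a close relative with the same rapid induction, was at 5.13, 28.32 and 9.72 CPM against 2.28, 4.99 and 2.92 CPM, with 5.6 CPM in wild type. Its groups separated by only 0.14 CPM at the nearest values, and 1 library, H6, stood far above the others. The difference was 1.55 log2 units (SE 0.531, limma adjusted p = 0.17), and it was 0.93 without H6 and 2.06 without H1.

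The FRA proteins are AP-1 subunits of the later, sustained response to ERK activity. FOSL2, which encodes FRA-2 (ENSG00000075426, chromosome 2), was at 43.79, 64.56 and 74.72 CPM in H1, H6 and H10 and at 142.52, 113.8 and 123 CPM in L1, L3 and L8. Every ALDH-low clone lay above every ALDH-high clone, and wild type, at 43.72 CPM, lay beside the lowest of them. Means were 61.0 ± 15.8 and 126 ± 14.7 CPM (SD, n = 3 each), 2.07-fold higher in ALDH-low clones. The log2 difference of -1.07 (SE 0.211, 95% interval -1.55 to -0.58) had the smallest adjusted p of the 34 genes (limma adjusted p = 0.0577). FOSL1, which encodes FRA-1 (ENSG00000175592, chromosome 11), was at 140.79, 443.34 and 311.8 CPM against 537, 425.23 and 403.2 CPM, with 167.38 CPM in wild type. H1 and wild type were low and the other 5 libraries were within a narrower band, with H6 inside the ALDH-low range. The difference of FOSL1 was -0.74 log2 units (SE 0.375, limma adjusted p = 0.322), and it was -0.28 without H1 and -1.10 without H6.

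JUN family genes, whose products pair with the FOS proteins, did not share a pattern. JUN (ENSG00000177606, chromosome 1) was between 347.5 and 440.24 CPM in all 6 clones and at 336.55 CPM in wild type. Its difference was 0.01 log2 units with a 95% interval of -0.33 to 0.35, the narrowest interval of the 34. JUNB (ENSG00000171223, chromosome 19) was at 71.13, 120.38 and 87.48 CPM in the H clones against 71.96, 42.11 and 44.92 CPM in the L clones, with 125.05 CPM in wild type. Only L1 reached the ALDH-high range (0.81 log2 units, SE 0.26, limma adjusted p = 0.151). JUND (ENSG00000130522, chromosome 19), usually the more constant member of the family, ranged from 22.21 CPM in H1 to 132.36 CPM in L1, a 5.96-fold span with no order by group. MAFF, a small MAF factor that can pair with AP-1 proteins, was at 9.1, 16.62 and 13.48 CPM against 5.52, 9.47 and 6.52 CPM. L3 exceeded H1 by 0.37 CPM, and wild type had 7.99 CPM (0.78 log2 units, limma adjusted p = 0.181).

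**Figure D2:**
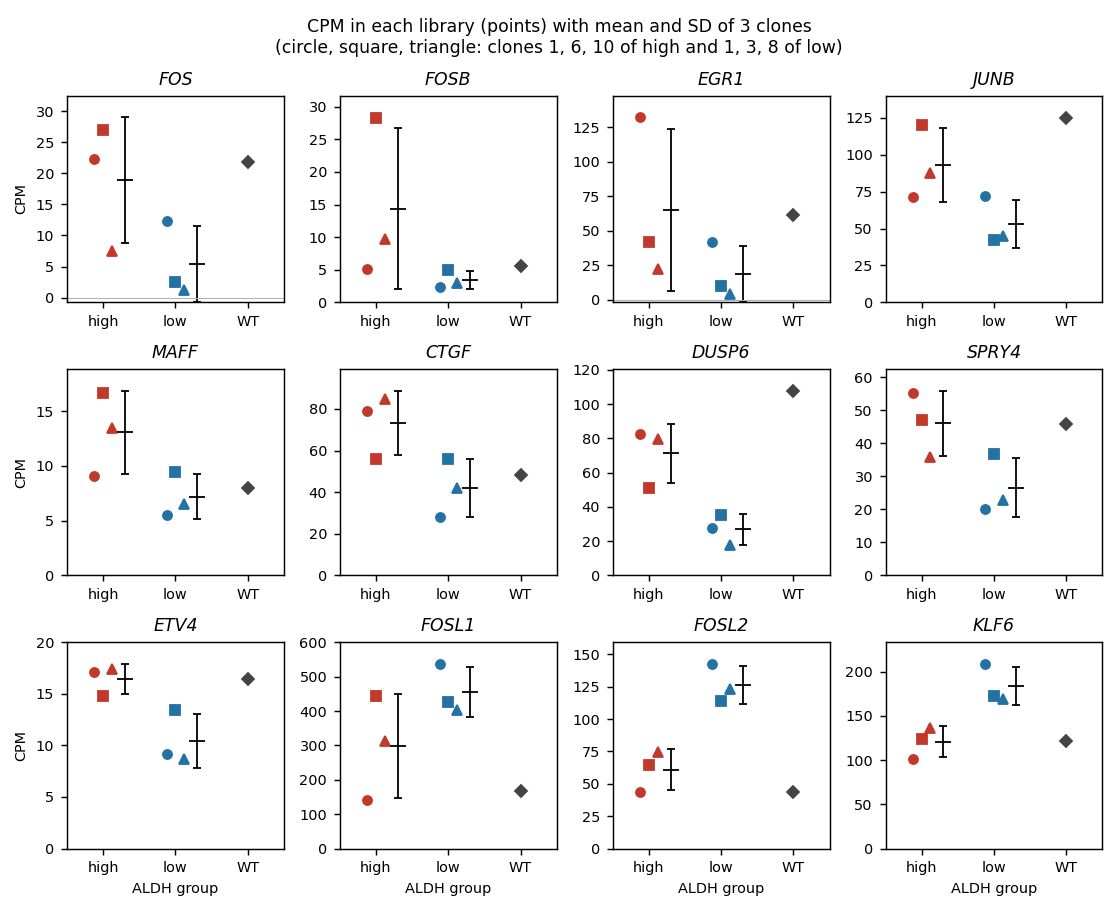
CPM (linear axis) of 12 genes in each library, with red for ALDH-high clones, blue for ALDH-low clones and grey for wild type (WT), and with mean and SD (bars) of the 3 clones of a group. FOSL1, FOSL2 and KLF6 have higher means in ALDH-low clones and the other 9 in ALDH-high clones, and single clones such as H6 for FOSB (28.32 CPM) and H1 for EGR1 (132.17 CPM) stand apart.

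EGR1 (ENSG00000120738, chromosome 5), a zinc finger factor induced by ERK through the CArG boxes shown above, had the widest spread of the set. It was at 132.17, 41.66 and 22.2 CPM in H1, H6 and H10, at 41.96, 10.1 and 4.04 CPM in L1, L3 and L8, and at 61.27 CPM in wild type. The highest clone was 32.7-fold above the lowest, and L1 lay inside the ALDH-high range. The difference between groups was 1.93 log2 units (SE 0.835, 95% interval 0.0011 to 3.85, limma adjusted p = 0.254). SRF (ENSG00000112658, chromosome 6), which encodes the factor that binds CArG boxes and carries them in its own promoter, followed another order. It was at 6.72, 23.39 and 20.52 CPM in H1, H6 and H10, at 17.04, 16.54 and 18.32 CPM in the L clones and at 6.47 CPM in wild type. H1, the clone with the most EGR1, thus had the least SRF of the 6 clones, with no difference in group means beyond the spread (-0.20 log2 units, 95% interval -1.13 to 0.73).

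Among the Krüppel-like factors, KLF6 (ENSG00000067082, chromosome 10), a growth-restraining zinc finger factor, was lower in each ALDH-high clone than in any ALDH-low clone. It was at 101.69, 124.24 and 136.52 CPM against 208.72, 172.8 and 169.64 CPM, with 121.58 CPM in wild type (-0.60 log2 units, SE 0.162, limma adjusted p = 0.108). KLF4, a factor also used in reprogramming to pluripotency, was at 2.3, 12.44 and 2.92 CPM in H1, H6 and H10 and at 2.48, 3.46 and 6.96 CPM in the L clones, so that 1 ALDH-high clone set the group mean. KLF2 stayed at or under 4.02 CPM in all 7 libraries. KLF10, an early target of TGF-β, was between 15.04 and 33.12 CPM in the clones and at 10.75 CPM in wild type. NR4A1, an orphan nuclear receptor induced by many stimuli, was the gene that did not reach the filter: it was at 0.72, 5.58 and 1.04 CPM in H1, H6 and H10, at 0.8, 0.47 and 0.44 CPM in the L clones and at 6.47 CPM in wild type.

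The ERK phosphatase gene DUSP6 (ENSG00000139318, chromosome 12) encodes a cytoplasmic enzyme specific for ERK and is widely used as a readout of ERK activity. It was at 82.65, 51.14 and 79.72 CPM in H1, H6 and H10, at 27.8, 35.08 and 17.56 CPM in L1, L3 and L8, and at 107.71 CPM in wild type. All ALDH-high clones lay above all ALDH-low clones, and wild type lay above them all. Means were 71.2 ± 17.4 and 26.8 ± 8.80 CPM (SD, n = 3 each), a 2.65-fold ratio. The difference of 1.40 log2 units (SE 0.284, 95% interval 0.74 to 2.05) did not pass (limma adjusted p = 0.0607).

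Other DUSP genes did not follow DUSP6. DUSP4 and DUSP5, nuclear phosphatases of the same feedback, were lowest among the clones in H1, at 12.64 and 19.07 CPM. DUSP4 otherwise ranged from 14.76 to 49.93 CPM and DUSP5 from 44.28 to 61.07 CPM in the other 5 clones, with 21.86 and 51.48 CPM in wild type. DUSP7, a cytoplasmic relative of DUSP6, was at 5.05, 16.62 and 26.28 CPM in the H clones and at 19.72, 4.79 and 11.96 CPM in the L clones, with 4.56 CPM in wild type. DUSP1, which acts on p38 and JNK as well as ERK, was between 54.68 and 104.49 CPM in the clones and at 143.24 CPM in wild type. For these 4 genes the log2 differences lay between -0.25 and 0.30, with limma adjusted p from 0.756 to 0.956, and the 95% interval of DUSP7 ran from -1.11 to 1.72.

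Of the 5 Sprouty and SPRED genes, SPRY4 (ENSG00000187678, chromosome 5) came nearest to the DUSP6 order. It was at 55.27, 47.08 and 35.76 CPM in H1, H6 and H10 and at 20.04, 36.77 and 22.72 CPM in the L clones, with 45.92 CPM in wild type. The groups overlapped by 1.01 CPM, between H10 and L3 (0.80 log2 units, SE 0.259, limma adjusted p = 0.153). SPRY2 (ENSG00000136158, chromosome 13) was between 9.68 and 13.12 CPM in 5 clones but at 46.31 CPM in L3 and 54.23 CPM in wild type. That clone alone sets the ALDH-low mean, and its level lies close to wild type. SPRY1 stayed at or under 2.82 CPM, and was at 0.16 CPM in L8. SPRED1 and SPRED2, which hold RAS in check through neurofibromin, ranged from 3.5 to 5.72 CPM and from 18.22 to 35.45 CPM across the 7 libraries.

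The PEA3 factors ETV4 and ETV5 are ETS-family transcription factors that ERK and FGF signalling induce. ETV4 (ENSG00000175832, chromosome 17) was at 17.09, 14.78 and 17.44 CPM in H1, H6 and H10 against 9.16, 13.4 and 8.64 CPM in the L clones, with 16.43 CPM in wild type. The groups did not overlap (0.63 log2 units, SE 0.211, limma adjusted p = 0.162). ETV5 was between 58.6 and 98.15 CPM in all libraries, with a difference of -0.16 log2 units (95% interval -0.61 to 0.29).

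Early effectors outside transcription were next. CTGF and CYR61 encode secreted matricellular proteins that both SRF and the Hippo pathway factor YAP control. CTGF (ENSG00000118523, chromosome 6) was at 79.08, 55.9 and 84.92 CPM in the H clones and at 28.2, 55.86 and 42.08 CPM in the L clones, with 48.12 CPM in wild type. The nearest values of its groups differ by 0.04 CPM, which is also the smallest value above 0 in each library (0.82 log2 units, SE 0.268, limma adjusted p = 0.156). CYR61 was between 136.19 and 218.1 CPM in the clones and at 237.6 CPM in wild type. PHLDA1 (ENSG00000139289, chromosome 12), a pleckstrin-homology gene that tracks ERK output in many tumours, was at 218.55, 199.22 and 246.92 CPM in the H clones and at 178, 126.69 and 181.2 CPM in the L clones (0.46 log2 units, SE 0.179, limma adjusted p = 0.206).

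IER3, IER5 and ZFP36 varied by clone rather than by group. IER3, an early survival gene, was at 30.68 and 32.44 CPM in L1 and L8 and between 8.92 and 20.32 CPM in the other 4 clones. IER5 was at 24.46 CPM in H6 and between 6.24 and 13.72 CPM in the other 5 clones. ZFP36, which encodes tristetraprolin, a protein that speeds decay of unstable transcripts, was at 26.43 CPM in H6 and between 9 and 20.04 CPM in the other 5. MCL1, a BCL2-family survival gene, was between 29.43 and 49.04 CPM in the 6 clones, and IER2 between 2.84 and 5.92 CPM.

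**Figure D3:**
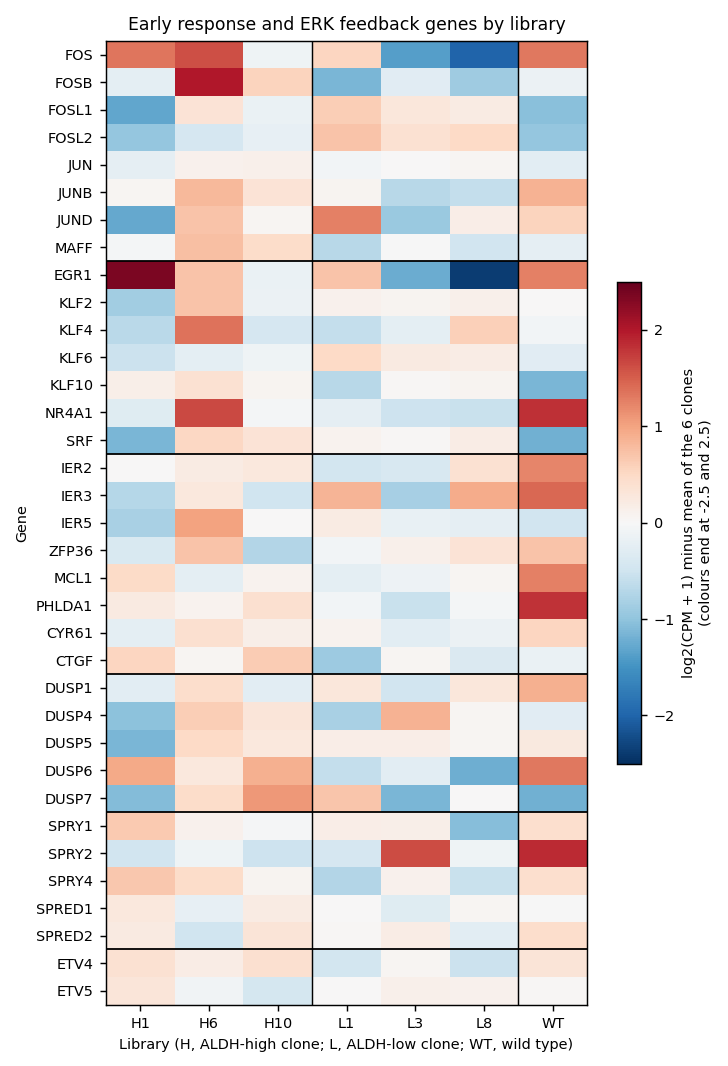
Level of each of the 35 genes (rows, grouped by role between black lines) in each of the 7 libraries (columns), as log2(CPM + 1) minus the mean of the 6 clones, with red above and blue below. No column is of 1 colour. H6 is above the clone mean for 27 of the 34 tested genes, against 6886 of all 12705 tested genes. H1 is strongly high for EGR1 and low for SRF, FOSL1 and DUSP5.

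The spread between clones was wide for these genes. The median SD over the 6 clones was 0.57 log2 units, beside 0.30 for all tested genes, and 22 of the 34 genes lay among the 25.0% of all tested genes with the largest SD. The SDs of EGR1, FOS and FOSB were 1.66, 1.46 and 1.15 log2 units. Over the 34 genes together, median SDs within ALDH-high and ALDH-low clones were 0.40 and 0.38, beside 0.23 in each group for all tested genes. Over the 6 clones, the median SD was 0.57 for the 22 transcription factors and early effectors. It was 0.56 for the 12 DUSP, Sprouty, SPRED and PEA3 genes. Within ALDH-high and ALDH-low clones, the medians were 0.46 and 0.32 for the first part and 0.37 and 0.44 for the second. This split was not tested. H6 held the highest value of the 6 clones for 13 of the 34 genes, against 1951 of all 12705 tested genes. Its 11 highest values among the 22 transcription factors and early effectors included FOS, FOSB, JUNB, MAFF, KLF4 and IER5. H1 held the lowest value for 11 of the 34 genes and the highest for 7, against 2779 and 2989 of all tested genes. The 7 highest values of H1 included EGR1, DUSP6, SPRY4 and MCL1. Time since feeding, cell density and passage of each clone are not given in the labels, so the part of culture state in these differences was not tested.

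The single wild-type library was described by its values, and no test of it was run. It lay above all 6 clones for 10 of the 34 genes and below all of them for 5, against 22.6% and 25.4% of all tested genes. For 4 genes it exceeded every clone by over 0.5 log2 units, against 5.49% of all tested genes, and for 0 genes it lay that far below, against 5.34%. PHLDA1 had 663.96 CPM in wild type, where the highest clone had 246.92 CPM. MCL1 had 85.41 CPM against at most 49.04 CPM in a clone, IER3 46.8 against 32.44 CPM, and IER2 11.35 against 5.92 CPM. All 4 belong to the early effectors, and none of the DUSP, Sprouty or PEA3 genes exceeded the clones by that margin. Lower values than in any clone were those of KLF10, SRF, DUSP7, FOSL2 and JUN. For SRF (6.47 CPM), FOSL2 (43.72 CPM) and JUN (336.55 CPM), H1 was the next lowest library. Wild type and H1 were together below or together above the other 5 clones for 10 of the 34 genes. This was the case for 29.7% of all tested genes, so the likeness of these 2 libraries belongs to the whole table. With 1 wild-type library, the unsorted line and the state of that culture cannot be told apart.

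**Figure D4:**
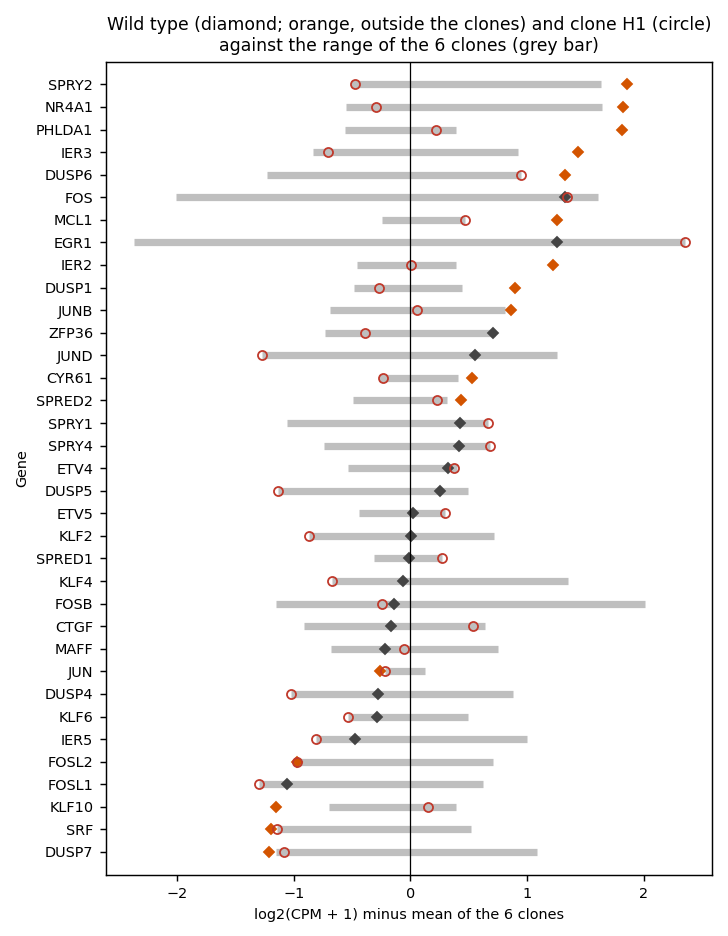
Wild type (diamonds, orange where outside the clones) and H1 (open circles) on log2(CPM + 1) minus the mean of the 6 clones, with the range of the clones as grey bars, for all 35 genes. PHLDA1, MCL1, IER2 and IER3 lie to the right of the clone range by over 0.5 log2 units, and wild type and H1 lie together at the lower end for SRF, FOSL2 and JUN.

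The rest of the pathway was followed through lists of upstream and neighbouring genes. Of 138 such genes tested, limma passed 1, beside 1.34% of all tested genes. The gene was ATF2, which encodes a partner of JUN proteins, and it fell from 32.64, 47.37 and 42.56 CPM in L1, L3 and L8 to 18.72, 14.61 and 17.84 CPM in H1, H6 and H10 (-1.20 log2 units, SE 0.193, limma adjusted p = 0.0336). Wild type had 16.59 CPM. ATF2 has the same 7 values as a microRNA gene, so the source of its reads is uncertain. Its call held when H1 was left out and was lost when any other clone was (limma adjusted p up to 0.136). Among 17 ternary complex, ETS and CREB-family regulators, 1 fell (ATF2), 0 rose and 16 did not pass. ETS2 was at 7.67, 23.97 and 12.48 CPM against 25.24, 42.46 and 45.68 CPM, and ETV1 at 11.84, 5.01 and 6.32 CPM against 0.12, 6.87 and 0.36 CPM (limma adjusted p = 0.115 and 0.198).

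Genes of the RAS-ERK cascade gave 0 calls by limma among 33 tested. Unadjusted, 9 had a p under 0.05, of which 4 were higher and 5 lower in ALDH-high clones, beside 19.7% of all tested genes. RPS6KA5, an ERK-activated kinase of chromatin and CREB, was at 12.24, 15.02 and 12.56 CPM in the H clones against 4.44, 8.41 and 6.64 CPM in the L clones (0.96 log2 units, limma adjusted p = 0.0972). RRAS2, a RAS relative, was at 48.08, 59.27 and 49.48 CPM against 89.28, 63.76 and 76.2 CPM (limma adjusted p = 0.151). MAPK3, which encodes ERK1, was lowest in H1 and wild type, at 8.9 and 12.07 CPM.

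Among 9 ErbB, FGF and PDGF ligand genes limma made 0 calls (2 unadjusted, beside 19.7% of all tested genes). HBEGF, an EGFR ligand, was at 12.4, 23.6 and 15.24 CPM in the H clones and at 48.84, 20.47 and 29.2 CPM in the L clones (limma adjusted p = 0.213). FGF1 was at 3.7, 21.47 and 5.8 CPM against 21.72, 62.5 and 14.4 CPM, and PDGFA stayed at or under 2.64 CPM in every library. Of 14 other ERK output genes limma passed 0 (0 unadjusted), and the 3 with the smallest p were LGALS3, MAP2K3 and IL8, with limma adjusted p from 0.283 to 0.395.

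Of 37 further early response genes none passed limma's adjusted test, while 11 (8 higher, 3 lower) were under 0.05 unadjusted, beside 19.7% of all tested genes. ID2 and ID3, inhibitors of basic helix-loop-helix factors, and HES1, a Notch target with an early response of its own, had the smallest p. ID2 was at 23.25, 17.73 and 9.8 CPM against 3.48, 6.6 and 5.44 CPM, and HES1 at 7.51, 17.36 and 13.2 CPM against 5.56, 2.99 and 3.64 CPM (limma adjusted p = 0.0777 and 0.0824). ID3 was at 1318.24, 1026.63 and 919.16 CPM against 575.88, 700.69 and 662.56 CPM (limma adjusted p = 0.0893). The groups did not overlap for any of these 3 genes.

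YAP and TEAD genes gave 0 calls by limma among 17 (3 unadjusted, beside 19.7% of all tested genes). AXL, a receptor kinase and YAP target, was at 174.61, 254.71 and 129.36 CPM in the H clones against 421.48, 338.58 and 498.48 CPM in the L clones (-1.20 log2 units, limma adjusted p = 0.0681), so it lay opposite in direction to CTGF, another target of YAP. TEAD2 and TEAD4 were at 9.12 to 10.18 against 13.68 to 21.25 CPM and at 44.98 to 50.04 against 35.08 to 38.4 CPM. SRF and MRTF cytoskeletal genes gave 0 calls by limma among 14 (7 unadjusted, 3 higher and 4 lower, beside 19.7% of all tested genes). FLNA, which cross-links actin, was at 246.41, 374.1 and 278.08 CPM against 539.24, 572 and 499 CPM (-0.86 log2 units, limma adjusted p = 0.0654). FHL1 was at 21.38, 16.95 and 25.04 CPM against 12, 12.06 and 10.24 CPM, and CALD1, an actin-binding gene, at 47.09, 91.65 and 111.92 CPM against 5.12, 38.06 and 21.84 CPM (limma adjusted p = 0.089 and 0.124). The 2 directions within the SRF and MRTF list gave a median of -0.05 log2 units.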

How the data were processed

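RNA of 7 UM-UC-3 libraries was compared from a table of 13872 genes in CPM, which the authors deposited rounded to 2 decimals. The submitters' processing notes list BWA 0.5.9, mm9 and hg19 with no role for any of them, and the column names end in the name of a CAGE package. How reads were assigned to genes, and whether strand was used, was not stated in any source at hand. Of the 35 genes, 14 overlap a gene annotated on the opposite strand in GENCODE, whose reads may be mixed with theirs. They include FOSB, FOSL2, PHLDA1, CTGF, DUSP6 and ETV4, whose values separate the ALDH groups, and also JUNB, MAFF and SPRY4. KLF6, which also separates the groups, is not among them. No member shares all 7 values with another gene. Chromosomes come from GENCODE by gene identifier (35 of 35 matched), and promoter sequences from RefSeq (GRCh38.p14).

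The members and gene lists were chosen with earlier results of these data known. Genes that reached 1 CPM in 3 or more of 6 clones entered a limma 3.58.1 fit (R 4.3.3) of log2(CPM + 1) (eBayes with trend, two-sided, threshold 0.05 after Benjamini-Hochberg adjustment). The fit was tested on simulated counts with the same spread for every gene and no outlying clones. That test does not show how the fit behaves for genes that vary as widely as EGR1 or FOS. An exact permutation test of 3 against 3 cannot go below p = 0.1, so p-values rest on limma's pooled variance. Values in every library are given for genes that separate the groups, differ most, vary most between clones or lie outside the clones in wild type, and for the 3 genes of each pathway list with the smallest p. KLF4, NR4A1, SRF, MAPK3 and others were added after their values were seen. Some genes of the pathway lists that this choice covers are not reported here. Alternatives were other pseudocounts (0.1 and 5), no filter or one at 5 CPM, other scalings, other eBayes settings, weights per library, the wild type added to the fit (7 libraries) and leaving out each clone. The library totals behind the CPM are not stated, so no counting intervals are given.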

Additional observations from a re-analysis of the deposited data

How the results depend on the processing

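No member was called under any limma alternative except library weights. That setting gave 2 higher (DUSP6, adjusted p = 0.0241, and MAFF, 0.04996) and 1 lower (FOSL2, 0.0269), in a fit that called 5.51% of all tested genes. Over the 16 alternatives the adjusted p of DUSP6 ran from 0.0241 to 0.2 and that of FOSL2 from 0.0269 to 0.184, neither changing sign. The median difference of the members ranged from 0.11 (without H6) to 0.36 (without H1). The count of called pathway genes, 1 in the reported fit (ATF2), was 7 with library weights, 2 without H1, 1 without L3 (not ATF2) and 0 without any of the other 4 clones. FOS and EGR1 were positive throughout, with 1.37 to 2.64 and 1.22 to 2.77 log2 units when a clone was left out. Of the 34 tested members, 21 kept their sign under all alternatives. The other 13, never called, changed it. With library weights SRF, DUSP4 and DUSP5 were at 0.14, 0.36 and 0.088 log2 units, and with median-ratio scaling JUN was at -0.0082. Leaving out a clone gave -0.053 to 0.12 for JUN, -0.88 to 0.22 for JUND, -0.61 to 0.18 for KLF2, -0.47 to 0.54 for KLF4 and -0.50 to 0.33 for SRF. It gave -0.34 to 0.57 for IER5, -0.69 to 0.034 for ZFP36, -0.31 to 0.071 for DUSP1, -0.49 to 0.43 for DUSP4 and -0.56 to 0.25 for DUSP5. For DUSP7, SPRED2 and ETV5 the ranges were -0.20 to 0.92, -0.12 to 0.29 and -0.35 to 0.020. The cause of these changes was not tested. The planned edgeR and DESeq2 fits on reads recovered from the CPM steps were not run, because in 2 of the 7 columns too few values fell on whole reads. No paired analysis was possible because the clone numbers of the groups share only the number 1.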

Other observations

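Some genes of the early response, ERK output and cascade lists also lay over 0.5 log2 units outside the clones in wild type. The 1 wild-type library was not tested. Of all tested genes, 5.49% lay that far above the clones and 5.34% that far below. Of 37 tested early response genes, 3 lay that far above and 0 that far below. The counts were 1 and 2 of 14 ERK output genes, and 1 and 4 of 33 cascade genes. The genes below are examples. Others such as HRAS (below) lay as far out, as did FHL1 (above) of the SRF and MRTF list. NR4A2, a relative of NR4A1, did not reach the filter and is not in these counts. It was at 5.16 CPM in wild type and between 0.44 and 1.23 CPM in the 6 clones. ERRFI1, a feedback inhibitor of EGFR, was at 556.29 CPM against 137.61 to 338.36 CPM, and PLAU, the urokinase gene, at 752.36 CPM against 170.13 to 346.44 CPM. BTG1, an antiproliferative gene, was at 72.54 CPM against 26.6 to 48.72 CPM. On the low side, ODC1, the first enzyme of polyamine synthesis, was at 206.02 CPM in wild type and between 463.22 and 679.8 CPM in the clones. The adaptor and phosphatase genes GRB2 and PTPN11, which connect receptors to RAS, were at 92.04 and 78.85 CPM against 138.35 to 168.36 CPM and 146.39 to 209.32 CPM.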
